A study of Homo sapiens with 6 samples.

Results

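Transcripts of 10 S100 genes, S100A2, S100A4, S100A6, S100A7, S100A8, S100A9, S100A10, S100A11, S100A14 and S100A16, were followed in KYSE150, a widely used cell line derived from a human squamous carcinoma of the oesophagus. The 10 were taken by RefSeq symbol from the 40448 Entrez gene IDs listed for each library. The clones differed in the plasmid they carried. NCCRP1 clones 1, 6 and 17 stably carried an expression vector for human NCCRP1, a relative of the substrate-binding F-box proteins, and mock clones 1, 4 and 5 carried the vector pIRES2-EGFP without it. Each clone gave 1 library of total RNA depleted of ribosomal RNA, so a group holds 3 clones of 1 line and p-values measure the spread between 3 and 3 libraries. The comparison asks which S100 transcripts differ when the line expresses NCCRP1. Levels are given as log2 RPKM, the logarithm of reads scaled to exon length and library depth, which allows genes of different length to be compared. Values under 1 RPKM were listed as 0, but so were ubiquitous genes like UBB and TPT1, so a 0 can also stand for a missing estimate.

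S100 proteins are small calcium sensors with paired EF-hand motifs that mostly act as dimers. Calcium exposes a surface through which they bind annexins, cytoskeletal proteins and other targets, and some members are secreted and bind receptors such as AGER (RAGE) and TLR4. Most of the genes lie in a cluster on chromosome 1 next to the genes of the epidermal differentiation complex. In squamous epithelium, S100A8 and S100A9, which pair as calprotectin, and S100A7 (psoriasin) are known for induction in inflamed or hyperproliferative tissue. S100A4 is known as a metastasis-associated protein of mesenchymal cells, and S100A2 and S100A14 as proteins of stratified epithelium.

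The libraries held 12477 to 12821 genes above 0, at an estimated depth of 12290000 to 18070000 reads. For mock clone 1 the doubled depth of 24590000 fitted better. Doubled depths of the other libraries lay above the highest depth tried, 25000000 reads, so their fit is unknown. The NCCRP1 transcript itself stood at 6.19, 8.07 and 6.71 in NCCRP1 clones 1, 6 and 17, and all 3 mock clones had it at 0, as the labels state. All 8 squamous markers looked for were above 0 in every library, 3 with higher and 5 with lower means in NCCRP1 clones, at a median difference of -0.28, and 0 passed limma. KRT5, a basal keratin, differed by 0.04. Its partner keratin KRT14 was at 2.23, 1.89 and 1.11 in NCCRP1 clones 1, 6 and 17, compared with 4.22, 3.71 and 1.995 in mock clones 1, 4 and 5 (difference -1.57, SE 0.60, limma adjusted p = 0.631). KRT17 and KRT6A, keratins of activated epithelium, differed by -0.90 and -0.61 (limma adjusted p of 0.817 and 0.688), and the groups overlapped for all 8 markers. The names of the data files hold a number, 14 or 15, which was read here as the sequencing run. On that reading, run 14 held NCCRP1 clones 6 and 17 with mock clone 5, and run 15 held NCCRP1 clone 1 with mock clones 1 and 4.

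No S100 gene of the 10 passed the test over all genes. S100A8 and S100A9 had the largest positive differences between NCCRP1 and mock clones, and S100A4 the largest negative one. The 6 abundant members, S100A14, S100A6, S100A16, S100A10, S100A2 and S100A11, had group means within 0.20 of each other on the log2 scale, and S100A7 was listed at 0 throughout. Of the 10 members, 9 were above 0 in at least 3 libraries and were tested. S100A8 reached that number through the 3 NCCRP1 clones and mock clone 4, so the filter kept it because of the group in which it was high. Among the 9, 7 had a higher mean in NCCRP1 clones and 2 a lower one, and 0 passed limma at an adjusted p of 0.05. Over all 12737 tested genes 0.102% passed, 0.0707% higher and 0.0314% lower. At an unadjusted p of 0.05, 3 of the 9 (S100A8, S100A9 and S100A4) were under the threshold, against 7.33% of all genes. The median difference over the 9 was 0.16, against -0.016 over all tested genes.

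**Figure D1:**
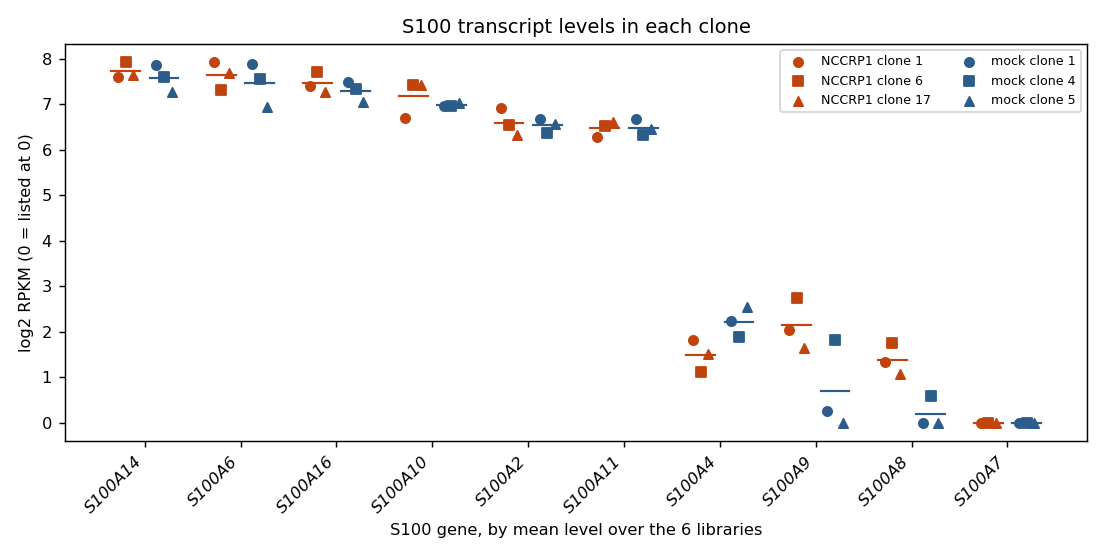
Log2 RPKM of the 10 S100 genes in each library (vertical axis, 0 marks a listed 0), ordered by mean level, with NCCRP1 clones in orange left of mock clones in blue and a line at each group mean. Of the 10 genes, 6 lie between 6.28 and 7.93 in every clone, while S100A4, S100A9 and S100A8 lie below 3 and S100A7 at 0.

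The members fell into a high and a low set with a wide gap between them. Over the 6 libraries, log2 RPKM was 7.65 ± 0.23 for S100A14, 7.55 ± 0.38 for S100A6, 7.37 ± 0.22 for S100A16 and 7.08 ± 0.29 for S100A10 (SD, n = 6 libraries). S100A2 followed at 6.57 ± 0.22 and S100A11 at 6.48 ± 0.16 (SD, n = 6 libraries). In this order S100A14 and S100A6 differed from the next lower gene by less than the larger of their SDs, as did S100A2. The step between S100A16 and S100A10 was about as large as the larger SD. S100A10 stood above S100A2 by more than the larger SD. The low set came far under these, with S100A4 at 1.85 ± 0.50 (SD, n = 6 libraries), S100A9 at 0 to 2.75 and S100A8 at 0 to 1.75. The abundant 6 made up 98.7% to 99.4% of the summed RPKM of the 10 genes in each library. That sum was 919, 979 and 917 RPKM in NCCRP1 clones 1, 6 and 17 and 984, 839 and 728 RPKM in mock clones 1, 4 and 5, so the groups overlapped.

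S100A8 (Entrez 6279) encodes the smaller subunit of calprotectin. Its log2 RPKM was 1.33, 1.75 and 1.07 in NCCRP1 clones 1, 6 and 17, compared with 0, 0.59 and 0 in mock clones 1, 4 and 5. Every NCCRP1 clone lay above every mock clone, and mock clone 4 was the sole mock clone above the floor. Groups did not overlap in this direction for 5.71% of all tested genes. The difference of the listed values was 1.18 (SE 0.26, 95% interval 0.61 to 1.75, limma adjusted p = 0.176), and no fold is given because 2 mock clones were listed at 0. The level was low in absolute terms: with a transcript of 523 bases, the RPKM values correspond to about 24, 28 and 16 reads in NCCRP1 clones 1, 6 and 17 and about 10 reads in mock clone 4. The listed 0 of mock clones 1 and 5 sets no upper limit, since it can also be a missing estimate.

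S100A9 (Entrez 6280), the calprotectin partner of S100A8, ranked the 3 NCCRP1 clones in the same order. Its log2 RPKM was 2.03, 2.75 and 1.65 in NCCRP1 clones 1, 6 and 17, compared with 0.26, 1.81 and 0 in mock clones 1, 4 and 5. Clone 6 was the highest NCCRP1 clone and clone 4 the highest mock clone for both genes, and for S100A9 mock clone 4 lay above NCCRP1 clone 17, so the groups overlapped. The difference was 1.45 (SE 0.48, 95% interval 0.37 to 2.54, limma adjusted p = 0.486). Without mock clone 4 it was 2.02 and passed (limma adjusted p = 0.0281), while S100A8 without that clone was at 1.38 (limma adjusted p = 0.0924). That S100A9 fit rests on mock clone 1, at about 8 reads (17 at its doubled depth), and on the listed 0 of mock clone 5. Such a 0 can be a missing estimate. S100A9 exceeded S100A8 in every library in which both were above 0, by a log2 difference of 0.71, 1.00 and 0.59 in NCCRP1 clones 1, 6 and 17 and 1.22 in mock clone 4. Together the calprotectin genes summed to 6.60, 10.1 and 5.24 RPKM in NCCRP1 clones 1, 6 and 17, compared with 1.19, 5.02 and 0 RPKM in mock clones 1, 4 and 5, which was 0.571% to 1.03% of the S100 sum in NCCRP1 clones and 0% to 0.599% in mock clones. These sums count a listed 0 as 0 RPKM, so those of mock clones 1 and 5 can be too low.

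S100A8 and S100A9 are abundant in neutrophils and monocytes, so myeloid markers were read beside them. Of 10 such markers, 8 were listed at 0 in every library, among them PTPRC (CD45), CD14, LYZ, ELANE and CSF3R, with the same limit on what a listed 0 shows. The others were CD68, a lysosomal protein also found outside the myeloid lineage, and CSF1R. The list summed to 49.0 to 65.3 RPKM in NCCRP1 clones and 38.3 to 54.2 RPKM in mock clones, nearly all of it CD68. CD68 was at 5.49, 5.90 and 5.94 in NCCRP1 clones 1, 6 and 17, compared with 5.40, 5.61 and 5.09 in mock clones 1, 4 and 5, so it differed in the direction of S100A8 with overlap (difference 0.41, limma adjusted p = 0.656). CSF1R spanned 1.99 to 2.06 in NCCRP1 clones and 2.12 to 2.43 in mock clones, in the opposite direction (difference -0.28, limma adjusted p = 0.83). Each library came from a clone of the KYSE150 line, and the part of such cells in the S100A8 and S100A9 values was not tested. In bulk RNA, fewer cells with a transcript and less of it per cell cannot be told apart.

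S100A4 (Entrez 6275), known from mesenchymal and metastatic cells and as a binder of non-muscle myosin, was the low-level member with the opposite sign. Its log2 RPKM was 1.81, 1.12 and 1.51 in NCCRP1 clones 1, 6 and 17, compared with 2.23, 1.88 and 2.54 in mock clones 1, 4 and 5. Every NCCRP1 clone lay below every mock clone, although NCCRP1 clone 1 and mock clone 4 were close. Groups did not overlap in this direction for 7.05% of all tested genes. The mean was 1.48 ± 0.35 in NCCRP1 clones and 2.21 ± 0.33 in mock clones (SD, n = 3 each), which is 0.602 times the mock level (log2 difference -0.73, SE 0.24, 95% interval -1.27 to -0.19, limma adjusted p = 0.462). These values correspond to about 38, 21 and 25 reads in NCCRP1 clones 1, 6 and 17 and 35, 28 and 56 reads in mock clones 1, 4 and 5 for a transcript of 600 bases, or about 69 in mock clone 1 at its doubled depth. Fibroblasts also express S100A4, and 5 of 6 fibroblast markers, among them COL1A2, COL3A1 and DCN, were listed at 0 throughout, which can again be a missing estimate. COL1A1, the marker with values, had a lower mean in NCCRP1 clones but, unlike S100A4, with overlap (difference -0.42, limma adjusted p = 0.876). Its values were 1.32, 1.35 and 2.49 in NCCRP1 clones 1, 6 and 17. Mock clones 1, 4 and 5 had 2.57, 2.05 and 1.81. The list summed to 2.49 to 5.62 RPKM in NCCRP1 clones and 3.50 to 5.96 RPKM in mock clones. As the libraries came from clones of the KYSE150 line, these are values of cultured clones, and the part of fibroblasts in the S100A4 values was not tested.

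Both sets of libraries read here as sequencing runs gave S100A8, S100A9 and S100A4 the signs of the pooled comparison. For S100A8 and S100A4 this was fixed beforehand, because every NCCRP1 clone lay on the same side of every mock clone. Within run 14, NCCRP1 clones 6 and 17 exceeded mock clone 5 by 1.41 for S100A8 and 2.20 for S100A9 and lay below it by a log2 difference of -1.22 for S100A4. Within run 15, NCCRP1 clone 1 exceeded the mean of mock clones 1 and 4 by 1.03 for S100A8 and 1.00 for S100A9, and differed by -0.24 for S100A4. The S100A4 difference was thus much smaller in run 15. Sizes within runs are uncertain for S100A8 and S100A9. Mock clone 5 was listed at 0 for both and mock clone 1 for S100A8, which can be a missing estimate. With the run as a term, the differences were 1.22, 1.60 and -0.73 for S100A8, S100A9 and S100A4 (limma adjusted p of 0.227, 0.42 and 0.428).

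**Figure D2:**
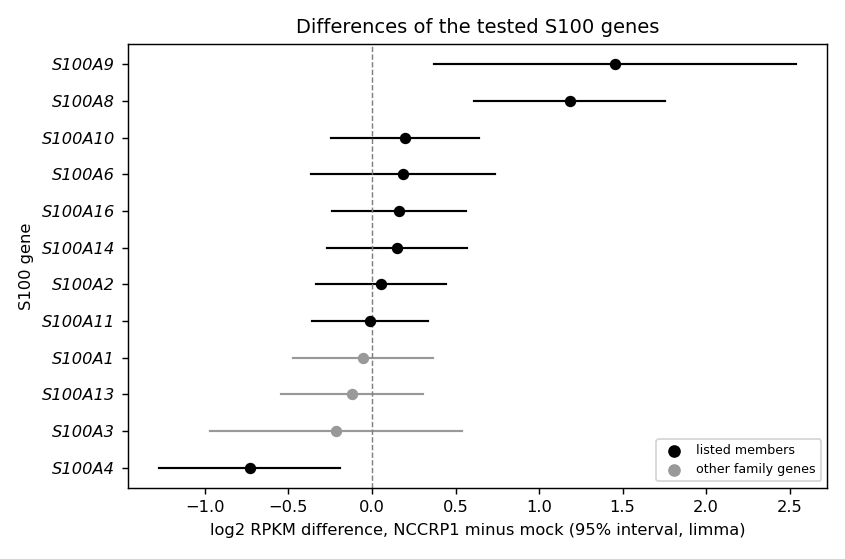
Difference in log2 RPKM, NCCRP1 minus mock (horizontal axis), with its 95% interval from limma, for the 9 tested members in black and 3 other tested family genes in grey. Intervals of S100A9 and S100A8 lie above 0 and that of S100A4 below 0, before adjustment over all genes, and the other intervals span 0.

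The abundant members differed little between the groups. S100A10, which lacks working calcium sites and joins ANXA2 in a heterotetramer at the plasma membrane, was at 6.70, 7.42 and 7.42 in NCCRP1 clones 1, 6 and 17, compared with 6.95, 6.97 and 7.03 in mock clones 1, 4 and 5. The mock clones were nearly equal, while the NCCRP1 clones spread to both sides of them, with clone 1 below and clones 6 and 17 above. The mean was 7.18 ± 0.42 in NCCRP1 clones and 6.98 ± 0.04 in mock clones (SD, n = 3 each), a difference of 0.20 (95% interval -0.25 to 0.64, limma adjusted p = 0.931). Without NCCRP1 clone 1 it was 0.44, and without NCCRP1 clones 6 and 17 in turn it was 0.076 and 0.080. Its partner ANXA2 was at 6.55, 6.53 and 6.06 in NCCRP1 clones 1, 6 and 17, compared with 6.36, 6.31 and 5.58 in mock clones 1, 4 and 5. The level of S100A10 per length was above that of ANXA2 in every library, with a log2 excess of 0.15 to 1.35 in NCCRP1 clones and 0.59 to 1.44 in mock clones. NCCRP1 clone 1, the lowest of its group in S100A10, was nearly equal in ANXA2 to clone 6 (6.55 and 6.53).

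S100A6 (calcyclin), a cytosolic protein that binds CACYBP and annexins, varied most among the abundant members. It was at 7.93, 7.32 and 7.69 in NCCRP1 clones 1, 6 and 17, compared with 7.89, 7.56 and 6.93 in mock clones 1, 4 and 5. Mock clone 5 stood lowest, and the groups overlapped (difference 0.18, 95% interval -0.37 to 0.73, limma adjusted p = 0.954). Without mock clone 5 the difference was -0.08.

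S100A14, an epithelial S100 protein, and S100A16, a broadly expressed member next to it on chromosome 1, showed nearly the same pattern over the clones. S100A14 was at 7.61, 7.92 and 7.65 in NCCRP1 clones 1, 6 and 17, compared with 7.86, 7.59 and 7.28 in mock clones 1, 4 and 5. S100A16 was at 7.40, 7.70 and 7.26 in NCCRP1 clones 1, 6 and 17, compared with 7.49, 7.34 and 7.05 in mock clones 1, 4 and 5. Both were highest in NCCRP1 clone 6, next in mock clone 1 and lowest in mock clone 5. The excess of S100A14 over S100A16 was 0.21 to 0.38 in NCCRP1 clones and 0.23 to 0.37 in mock clones. After each gene's mean was subtracted, their profiles differed by a root mean square of 0.072 over the 6 libraries, the smallest of the 36 pairs among the 9 members above 0, and the next pair, S100A11 with S100A14, was at 0.19. Group differences were 0.15 for S100A14 (95% interval -0.27 to 0.57) and 0.16 for S100A16 (95% interval -0.24 to 0.56), at limma adjusted p of 0.953 and 0.946.

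S100A2, a nuclear and cytoplasmic protein of basal keratinocytes, was at 6.92, 6.53 and 6.33 in NCCRP1 clones 1, 6 and 17, compared with 6.68, 6.38 and 6.56 in mock clones 1, 4 and 5. NCCRP1 clones held both the highest and the lowest value (difference 0.05, 95% interval -0.34 to 0.45, limma adjusted p = 0.989). S100A11, an annexin-binding member of keratinocytes, was at 6.28, 6.53 and 6.61 in NCCRP1 clones 1, 6 and 17, compared with 6.67, 6.32 and 6.46 in mock clones 1, 4 and 5. It was the most even member, with a range of 0.39 over all clones and a difference of -0.01 (95% interval -0.36 to 0.34, limma adjusted p = 0.997). S100A11 has pseudogenes on other chromosomes, and its value is uncertain where reads fit more than 1 of these copies.

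S100A7 was listed at 0 in all 6 libraries. The near-identical S100A7A was also listed at 0, and the files do not show how reads that fit both genes were counted, so the 0 does not show that the transcript was missing. Among 11 further S100 genes, 8 were listed at 0 throughout: S100A5, S100A7A, S100A7L2, S100A12, S100B, S100P, S100G and S100Z. The other 3 were tested and all had lower means in NCCRP1 clones without passing. S100A13, which takes part in the release of leaderless proteins, was at 5.08 ± 0.14 in NCCRP1 clones and 5.20 ± 0.39 in mock clones. S100A1, best known from muscle, was at 3.30 ± 0.35 in NCCRP1 clones and 3.35 ± 0.08 in mock clones. S100A3, known from hair cuticle, was at 1.44 ± 0.68 in NCCRP1 clones and 1.65 ± 0.44 in mock clones (SD, n = 3 each). S100A1 and S100A13 overlap on opposite strands, and the sources used here do not say whether counting used strand. All 7 fused-type S100 genes, the filaggrin family of the cornified layer (FLG, FLG2, HRNR, RPTN, TCHH, TCHHL1 and CRNN), were listed at 0 in every library.

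The promoter windows of the 3 members with the largest differences are shown because S100A8 and S100A9 had the largest positive differences and S100A4 the largest negative one. Each holds 250 bases before and 50 bases after a RefSeq start, 5′ to 3′ on the gene's strand (GRCh38.p14, chr1:153391024-153391323 minus strand for S100A8, chr1:153357604-153357903 plus strand for S100A9 and chr1:153545757-153546056 minus strand for S100A4). Capitals mark matches to the searched motifs, which here are TATAAA alone.
S100A8: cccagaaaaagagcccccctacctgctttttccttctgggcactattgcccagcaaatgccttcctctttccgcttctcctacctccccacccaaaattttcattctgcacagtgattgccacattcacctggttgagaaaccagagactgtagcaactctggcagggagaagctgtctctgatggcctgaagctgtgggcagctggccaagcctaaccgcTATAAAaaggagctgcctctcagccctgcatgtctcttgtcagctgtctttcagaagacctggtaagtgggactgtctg
S100A9: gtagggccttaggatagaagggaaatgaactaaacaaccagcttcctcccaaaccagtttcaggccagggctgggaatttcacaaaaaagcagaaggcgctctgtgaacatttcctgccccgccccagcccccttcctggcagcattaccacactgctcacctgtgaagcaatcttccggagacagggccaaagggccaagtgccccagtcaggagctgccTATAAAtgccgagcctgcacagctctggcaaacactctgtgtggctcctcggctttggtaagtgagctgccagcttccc
S100A4: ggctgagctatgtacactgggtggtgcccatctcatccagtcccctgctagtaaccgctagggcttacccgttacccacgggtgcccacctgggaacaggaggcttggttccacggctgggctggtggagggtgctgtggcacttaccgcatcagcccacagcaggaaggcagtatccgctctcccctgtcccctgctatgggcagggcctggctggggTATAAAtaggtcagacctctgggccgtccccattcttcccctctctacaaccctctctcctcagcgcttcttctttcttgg
S100A8 has 3 overlapping windows, and the middle one was chosen for printing after the matches were seen. Of the others, 1 holds the same TATAAA site, 126 bases before its own start, and 1 holds no match. The printed start lies 97 bases from the nearest GENCODE start, whereas the starts of the other windows lie at one.

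The motifs searched, on both strands, were AP-1 (TGANTCA), C/EBP (TTGCNNAA), the TATA box (TATAAA) and the kappaB motif. In the printed windows TATAAA began 29 bases before the start for S100A8, 29 for S100A9 and 31 for S100A4. S100A7 also held TATAAA, 28 bases before its start. All 4 members outside the abundant set thus held it in at least 1 window, whereas 0 of the 6 abundant members did, against 14% of 27305 genes with a window (11.5% of all 35116 windows). Of these 4, S100A7 was listed at 0 throughout, which leaves its level unknown. The RefSeq starts that define the windows of S100A10 and S100A6 lie 531 and 231 bases from the nearest GENCODE start. For S100A10 that GENCODE start lies outside the window. This split by level was noticed after the values were seen and was not tested. Of the abundant members, S100A2 had an AP-1 match, TGACTCA (7.71% of windows hold one), S100A11 a C/EBP match, TTGGGCAA (10.5%), and S100A14 a kappaB match, GGGGTTTCCC (11.3%). S100A6, S100A10 and S100A16 held none of the 4 in their windows, and neither S100A8 nor S100A9 held AP-1, C/EBP or kappaB letters there.

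The genes around the tested S100 members had smaller differences than S100A8, S100A9 and S100A4. Those members were picked for the largest differences, so this order was partly built in. They also had the lowest levels of the tested members, whereas every neighbour was above 0 in all libraries. Of 18 tested protein-coding neighbours outside the family, 10 had higher and 8 lower means in NCCRP1 clones, 0 passed limma, and 1 (CGN) was under an unadjusted p of 0.05. Their median difference was 0.0068, and 1 was higher and 2 lower without overlap, near the shares over all tested genes (5.71% and 7.05%). CGN, encoding the tight junction protein cingulin, differed by 0.45 and the enamel-associated TUFT1 by 0.30 (limma adjusted p of 0.573 and 0.802). SNAPIN, a vesicle protein, and DENND4B, a Rab exchange factor, differed by -0.23 and -0.18 (limma adjusted p of 0.807 and 0.866). After the median shift of the 30 nearest expressed genes was subtracted, the differences were 1.18 for S100A8, 1.46 for S100A9 and -0.74 for S100A4. S100A8 and S100A4 are separated in the tested gene order by S100A6, which differed by 0.18.

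**Figure D3:**
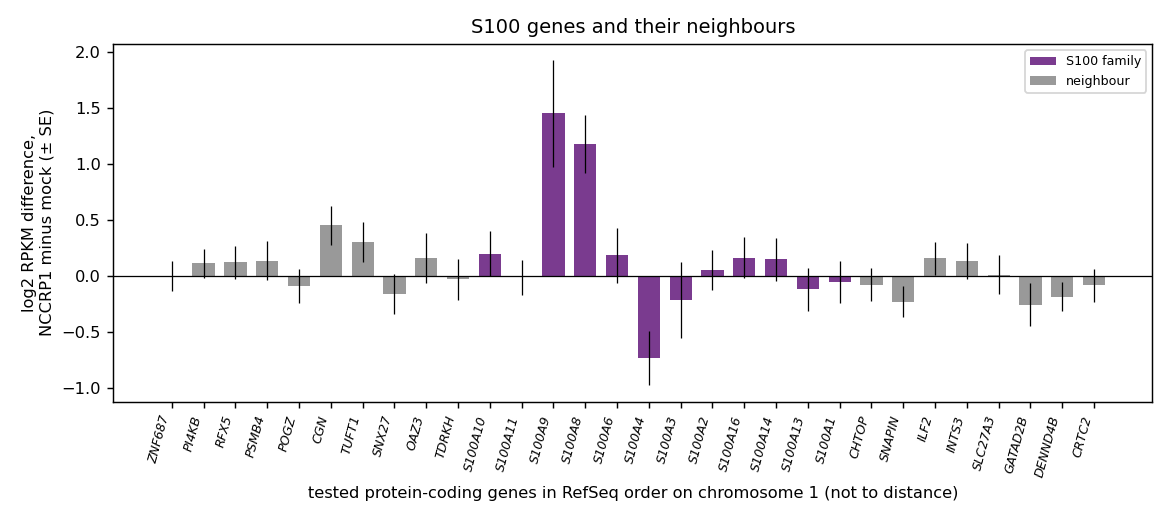
Log2 RPKM difference, NCCRP1 minus mock, with its SE (vertical axis), for S100 genes in purple and tested neighbours in grey, in RefSeq order along chromosome 1 (horizontal axis, not to distance). S100A9 and S100A8 stand at 1.45 and 1.18 and S100A4 at -0.73, while the neighbours lie between -0.26 and 0.45.

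Outside the family, the genes whose pattern over the 6 libraries was most like that of S100A8 were EHF, SOD2 and GNA15, out of 8860 protein-coding genes searched. Likeness was the root mean square difference of the profiles after each gene's mean was subtracted, 0.15, 0.19 and 0.20, where the S100A8 profile itself had a root mean square of 0.65. The listed 0 of mock clones 1 and 5 entered the S100A8 profile as a value. How far the ranking depends on it was not tested. EHF, an epithelial ETS transcription factor, was at 3.39, 3.83 and 3.32 in NCCRP1 clones 1, 6 and 17, compared with 2.25, 3.10 and 2.19 in mock clones 1, 4 and 5, which ranks the NCCRP1 clones as S100A8 does. SOD2, the mitochondrial superoxide dismutase, was at 5.54, 6.44 and 5.67 in NCCRP1 clones 1, 6 and 17, compared with 4.61, 4.93 and 4.23 in mock clones 1, 4 and 5. GNA15, a G protein alpha subunit, lies among chromosome 19 genes whose median shift was 0.53, beside its own difference of 0.89.

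For S100A4 the most similar genes were HAS3, a hyaluronan synthase, MPC1, a subunit of the mitochondrial pyruvate carrier, and PTPRS, a receptor tyrosine phosphatase, at 0.11, 0.12 and 0.15, where the S100A4 profile had a root mean square of 0.46. HAS3 was at 2.24, 1.72 and 1.79 in NCCRP1 clones 1, 6 and 17, compared with 2.51, 2.32 and 3.02 in mock clones 1, 4 and 5. MPC1 was at 2.60, 2.26 and 2.47 in NCCRP1 clones 1, 6 and 17, compared with 3.18, 3.01 and 3.52 in mock clones 1, 4 and 5. Mock clone 5 was the highest and NCCRP1 clone 6 the lowest for S100A4 and all 3 of these genes. Neighbour shifts were -0.22 for HAS3 and -0.28 for PTPRS, of differences of -0.70 and -0.65, and 0.0046 for MPC1. The 6 genes were picked for their likeness, and none passed limma (adjusted p of 0.109 to 0.457).

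**Figure D4:**
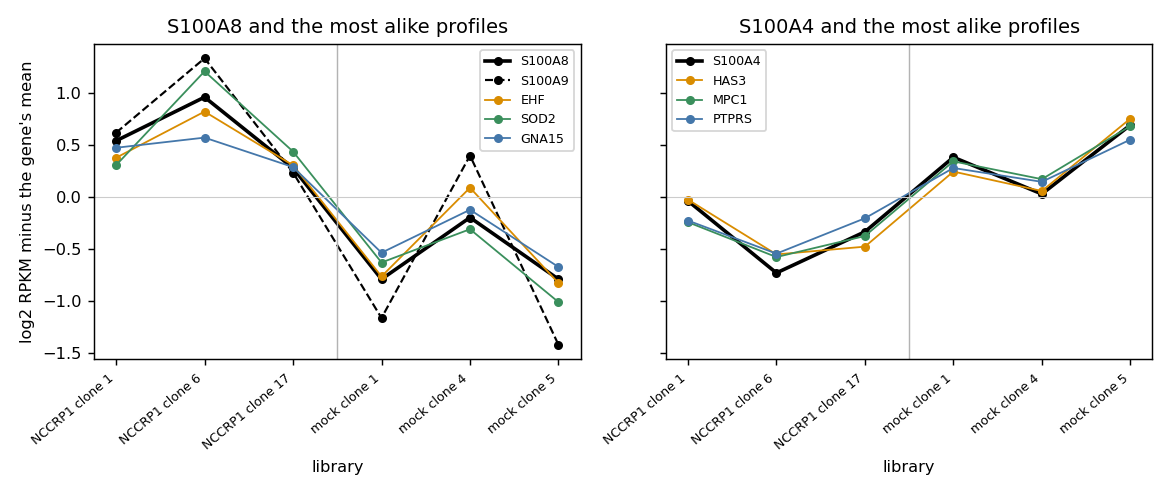
Log2 RPKM minus each gene's mean (vertical axis) in the 6 libraries (horizontal axis, NCCRP1 clones left of mock clones), for S100A8 with S100A9 and the 3 most similar genes on the left and for S100A4 with its 3 on the right. S100A8 peaks in NCCRP1 clone 6 and, among mock clones, in clone 4, and S100A4 is highest in mock clone 5.

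Annexins and other intracellular S100 partners showed no passing gene. Of 13, ANXA6 was listed at 0 and 12 were tested, 7 with higher and 5 with lower means and a median difference of 0.12. ANXA1, which binds S100A11, had a mean of 7.91 ± 0.11 in NCCRP1 clones and 8.17 ± 0.19 in mock clones (SD, n = 3 each). STIP1, a chaperone adaptor, was the 1 of 12 partners without overlap, near the share over all tested genes (12.8% in either direction), at 5.14 ± 0.03 in NCCRP1 clones and 4.96 ± 0.02 in mock clones (SD, n = 3 each, limma adjusted p = 0.864). ANXA11 differed by -0.0081, the S100A6-binding CACYBP by -0.14 and MYH9, the non-muscle myosin heavy chain bound by S100A4, by 0.21. MYH9 itself was at 8.11 ± 0.16 in NCCRP1 clones and 7.90 ± 0.17 in mock clones (SD, n = 3 each, limma adjusted p = 0.899).

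Receptors for secreted S100 proteins were partly listed at 0. TLR4, its co-receptor LY96, MCAM and CD36 were at 0 in every library, so of 9 genes 5 were tested and 0 passed. BSG (basigin), a cell-surface glycoprotein that binds S100A9, was at 8.78, 8.61 and 8.43 in NCCRP1 clones 1, 6 and 17, compared with 8.14, 8.06 and 7.85 in mock clones 1, 4 and 5. The groups did not overlap (difference 0.59, SE 0.18, limma adjusted p = 0.399), but the median of its chromosome 19 neighbours was shifted by 0.54, nearly as much. AGER, the receptor known as RAGE, was at 2.38, 2.19 and 2.72 in NCCRP1 clones 1, 6 and 17, compared with 2.03, 2.26 and 1.50 in mock clones 1, 4 and 5, with overlap (difference 0.50, limma adjusted p = 0.688). NPTN, which binds S100A8, differed by -0.08, and the adaptor MYD88 by 0.03.

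All 15 transcription factors listed as regulators of S100 or squamous genes were tested, 9 with higher and 6 with lower means, a median difference of 0.14 and 0 passing. JUN, an AP-1 subunit, was at 6.67, 6.17 and 6.77 in NCCRP1 clones 1, 6 and 17, compared with 6.26, 5.98 and 5.95 in mock clones 1, 4 and 5, with overlap (difference 0.47, limma adjusted p = 0.573). CEBPD, a C/EBP factor of the acute-phase response, was at 4.16, 4.19 and 4.36 in NCCRP1 clones 1, 6 and 17, compared with 3.74, 4.10 and 3.76 in mock clones 1, 4 and 5. STAT3 was at 6.28, 6.45 and 6.40 in NCCRP1 clones 1, 6 and 17, compared with 5.99, 6.24 and 6.10 in mock clones 1, 4 and 5. CEBPD and STAT3 did not overlap between the groups, at differences of 0.37 and 0.27 (limma adjusted p of 0.615 and 0.752), and 2 of 15 is close to the 12.8% of all tested genes without overlap in either direction. TP63, the squamous lineage factor that acts on S100A2, was at 4.07 ± 0.19 in NCCRP1 clones and 4.43 ± 0.46 in mock clones (SD, n = 3 each), and the S100A2 means differed by 0.05.

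**Figure D5:**
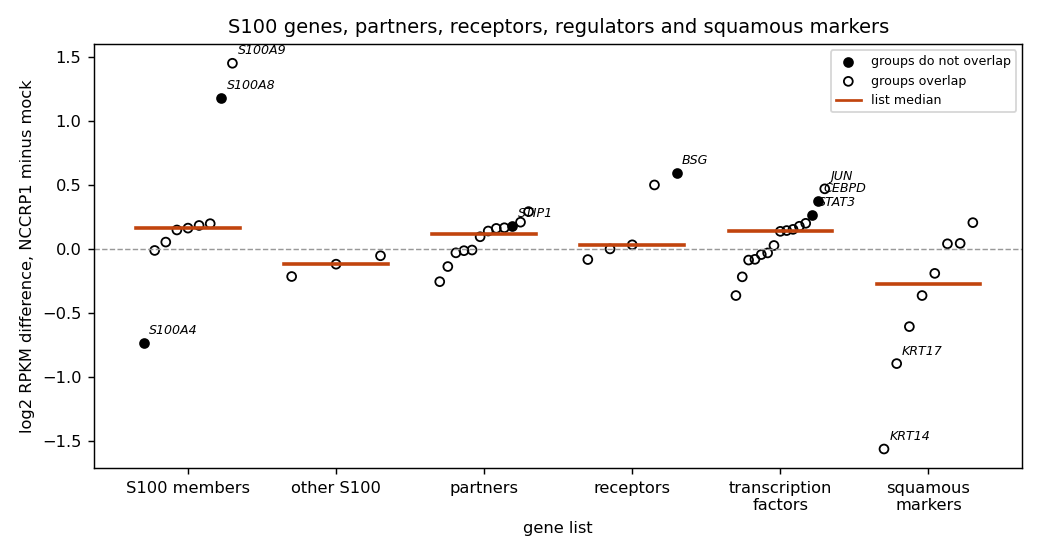
Log2 RPKM difference, NCCRP1 minus mock (vertical axis), for each tested gene of 6 lists (horizontal axis). Filled points are genes whose groups do not overlap and lines are list medians, which lie between -0.28 and 0.16. S100A9 and S100A8 are the highest genes shown, and the squamous markers KRT14 and KRT17 lie below S100A4.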

How the data were processed

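Per the labels' protocols, RNA of 6 stably transfected KYSE150 clones was freed of DNA and ribosomal RNA and made into Ion Torrent libraries. The submitters' processing notes name bedtools 2.25.0 and hg19 but not their use, and an aligner is not given in the sources used here. The headers call the values RPKM, but the deposited values are log2 RPKM: their antilogarithms to base 2, multiplied by transcript length in kilobases, summed to 1130000 to 1150000 per library, against at least 11500000 for natural logarithms.

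Depth was estimated from microRNA genes, whose low values rise in whole-read steps. At the best depth between 10000000 and 20000000 reads (an upper bound lowered from 25000000 after mock clone 1 had come out at 24590000, where 43.8% of its values were whole, against 34.3%), 24.6% to 34.3% of values under 8 steps lay within 0.005 of a whole step. Mock clone 1 was the sole library whose doubled depth lay within the first bound, so doubling was not tried for the others. Whole multiples of a depth cannot be told apart, so read numbers are approximate in every library. Too few values were whole for a count model.

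The deposited log2 RPKM values were fitted by group alone in R 4.3.3 using limma 3.58.1, with trended and robust variances and two-sided tests. Genes above 0 in at least 3 libraries, 12737 in all, were tested with Benjamini-Hochberg adjustment at 0.05. Because the files held logarithms, log2(RPKM + 1) served as an alternative, beside other filters, pseudocounts, scalings, the run as a term, neighbour shifts and each clone left out. Symbols (37997 IDs), gene order and promoter windows came from RefSeq (GRCh38.p14). Neighbours were tested protein-coding genes within 10 such genes of a member. Named genes were the family, ANXA2, ANXA11, CACYBP and MYH9, up to 4 per list with the lowest p, and the 3 genes most like S100A8 and S100A4 among protein-coding genes above 0 in all libraries with a mean of at least 2. The members and lists were chosen with earlier results of these data known.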

Additional observations from a re-analysis of the deposited data

How the results depend on the processing

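No paired analysis was possible because the NCCRP1 and mock clones share 1 clone number, which names different clones. The number of genes past the threshold, 13, was 3 with no filter, 16 with a mean log2 of at least 1, 4 with log2(RPKM + 1), 1 with log2(RPKM + 0.1), 2 with a listed 0 as missing, 5 with robust=FALSE, 2 with the run as a term, 9 with neighbour shifts subtracted, 10 with quantile normalization and 13 with median centring. With 1 clone left out it ran from 1 to 28. No S100 member passed in any of these fits except S100A9 without mock clone 4, so the count ran from 0 to 1. S100A8 stayed higher in all 17 settings that gave it a value (0.79 to 3.42), S100A9 in all 18 (1.00 to 2.54) and S100A4 lower in all 18 (-1.22 to -0.24). The groups of S100A8 and S100A4 did not overlap. Leaving out a clone, splitting by run or another pseudocount therefore could not change their sign. The listed zeros set the size for S100A8: 3.42 with log2(RPKM + 0.1) and 0.79 over the libraries above 0. For S100A9 the same settings gave 2.54 and 1.11. S100A8 was not tested with a mean log2 of at least 1. Members with small differences changed sign. S100A11 was at 0.0029 with median centring. With 1 clone left out, S100A11 ran from -0.0951 to 0.0850, S100A2 from -0.110 to 0.187, S100A6 from -0.0797 to 0.400, S100A14 from -0.00082 to 0.292, S100A10 from 0.0757 to 0.439 and S100A16 from 0.0387 to 0.264. S100A11 was above 0 without NCCRP1 clone 1 or mock clone 1, S100A2 below 0 without NCCRP1 clone 1 or mock clone 4, and S100A6 and S100A14 below 0 without mock clone 5. The runs are those read from the names of the data files. Within run 14, S100A6 was at 0.57, S100A14 at 0.51, S100A16 at 0.44, S100A10 at 0.39, S100A11 at 0.11 and S100A2 at -0.13. Within run 15, S100A2 was at 0.39, S100A6 at 0.20, S100A16 at -0.02, S100A14 at -0.12, S100A11 at -0.22 and S100A10 at -0.26. Median centring moved the differences of genes above 0 in every library by 0.014. S100A8 rests on about 10 to 28 reads in the libraries above 0.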
